A study of Mus musculus with 9 samples.

Results

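The nuclear-encoded genes of the mitochondrial respiratory chain and ATP synthase were examined in splenic myeloid-derived suppressor cells (MDSCs) of tumour-bearing mice. Members were taken by gene symbol: a name starting with Ndufa, Ndufb, Ndufc, Ndufs, Ndufv, Uqcr, Cox4, Cox5, Cox6, Cox7, Cox8 or Atp5, or one of Sdha, Sdhb, Sdhc and Sdhd, without the Ndufaf assembly factors. Of 23284 gene symbols, 86 matched and 82 had a mean of at least 1 FPKM (fragments of RNA scaled by transcript length and by the fragments mapped in the library) over the 9 samples. Cox4i2 (1.05) and Cox7a1 (1.06) were just inside this limit, and the 4 outside it were Ndufa4l2 (0.122) and Cox7b2, Cox8b and Cox8c, all listed at 0. The 82 members were 37 genes of complex I, 4 of complex II, 8 of complex III, 16 of complex IV and 17 of complex V.

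The samples were 3 libraries of polymorphonuclear MDSCs (PMN-MDSCs, Ly6G+) and 3 of monocytic MDSCs (Mo-MDSCs, Ly6G- Gr-1+) from wild-type (WT) C57BL/6J mice, and 3 of Mo-MDSCs from mice labelled as lacking both p16 and p21 (DKO, C57BL/6). The description fields of DKO replicates 2 and 3 name p16/p22 and p16/p23, whereas the titles, sources and genotype fields of all 3 give p16/p21, which is used here. All mice carried subcutaneous SCT cells, a spindle cell tumour line derived from a p16-knockout mouse, and cells were taken from the spleen with a magnetic isolation kit. The labels give an age of 3 weeks, which is the time between inoculation and isolation and is not taken as the age of the mice, since by the study's methods adults were inoculated. No source states whether each library came from 1 animal or a pool, or from separate isolations, so p-values measure the spread between these samples, which may be technical.

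The respiratory chain passes electrons from NADH and succinate to oxygen in the inner mitochondrial membrane and pumps protons while doing so, and the ATP synthase uses the proton gradient to make ATP. Complex I takes electrons from NADH and complex II from succinate, complex III hands them to cytochrome c, and complex IV reduces oxygen. Neutrophils are known for relying on glycolysis with few mitochondria, whereas monocytes keep a fuller oxidative metabolism. Of 26 symbols listed for subunits encoded by the mitochondrial genome, 0 were among the gene symbols, so these subunits could not be analysed here. Cyc1 of complex III and other subunits named outside these symbols stood in a separate list. By prefix alone the members also held Cox4nb, a subunit of an endoplasmic reticulum complex, and Atp5s and Atp5sl, which are not subunits of the synthase, and they put Ndufa4, which associates with complex IV, under complex I.

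Sums of neutrophil and monocyte markers separated the sorted populations, and each population also held markers of other cells. Ly6g, the PMN-MDSC sorting antigen, was not among the gene symbols. The 10 neutrophil markers (S100a8, S100a9 and Camp among them) summed to 100631 to 234031 FPKM in PMN-MDSCs. In WT Mo-MDSCs their sum was 17916 to 61906 FPKM, and in the libraries labelled DKO it was 7071 to 17144, so the sums of all 3 groups lay apart. S100a8 and S100a9 carried most of these sums, and none of the 10 markers passed the test between the genotypes as labelled. The 7 monocyte markers summed to 1080 to 1138, 2171 to 2436 and 1706 to 1971 FPKM in the same order of groups. Csf1r carried most of this sum in PMN-MDSCs, with a mean of 753 FPKM against 797 in WT Mo-MDSCs. Markers of red-pulp macrophages summed to 6338 to 7335 FPKM in PMN-MDSCs, against 3893 to 4904 among the Mo-MDSCs of WT mice. The libraries labelled DKO held 4285 to 6617. B-cell markers summed to 1434 to 1635, 1020 to 1148 and 1092 to 1373 FPKM, so that for both lists PMN-MDSCs lay above the WT Mo-MDSCs. Erythroid markers summed to 1257 to 2944 FPKM over all 9 samples without separating the groups, and T and NK cell markers to 4.04 to 10.2. Cdkn1a, which encodes p21, was measured at 8.18, 6.46 and 8.04 FPKM in WT Mo-MDSCs and at 5.55, 8.52 and 6.00 in the libraries labelled DKO, so its whole-gene level did not separate the genotypes. Cdkn2a, which encodes p16 and p19Arf, was at 0.718, 0.772 and 0.432 FPKM in Mo-MDSCs of WT mice, against 0.258, 0.586 and 0 in those labelled DKO. The extent of the deletions is not given in the sources used here, and reads from exons outside them would still count. The genotype is therefore named only as the label gives it.

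Members were among the more abundant transcripts. The median member had a mean of 88.1 FPKM, against 13.7 for the 11520 genes with a mean of at least 1 FPKM, and 36 members were at 100 FPKM or more, 40 between 10 and 100, and 6 under 10. By complex, the median member had 62.3 FPKM in complex I, 84.8 in complex II, 115 in complex III, 166 in complex IV and 150 in complex V. The most abundant was Cox4i1, a nuclear-encoded subunit of cytochrome c oxidase, at 389.7 FPKM over the 9 samples. Atp5b, the catalytic beta subunit of the synthase, led complex V at 326.8, Uqcrh, the hinge protein of complex III, led there at 281, Ndufa3 led complex I at 241, and Sdhb, the iron-sulphur subunit, led complex II at 96.0. All members together made up 1.22% to 1.49% of the summed FPKM of a PMN-MDSC library. Their share of a WT Mo-MDSC library was 1.61% to 1.72%, and of a library labelled DKO 1.47% to 1.68%. The share in PMN-MDSCs did not overlap the share in WT Mo-MDSCs. The summed FPKM itself was higher in PMN-MDSCs, at 711675 to 916642 against 549976 to 618250 in the WT Mo-MDSCs, and the 10 most abundant genes took 18.5% to 28.9% of it there against 9.56% to 15.3%.

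Mean log2(FPKM + 0.1) over the members of a complex summarised each sample. Ndufs5, an accessory subunit of complex I, varied without regard to group, at 0.00190, 45.4 and 30.2 FPKM in PMN-MDSCs, 9.23, 9.68 and 0.0157 among WT Mo-MDSCs, and 0.00540, 14.4 and 0.00650 among the libraries labelled DKO. Each group held at least 1 library near 0, and the means that include complex I are given with and without it, a choice made after its values were seen.

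**Figure D1:**
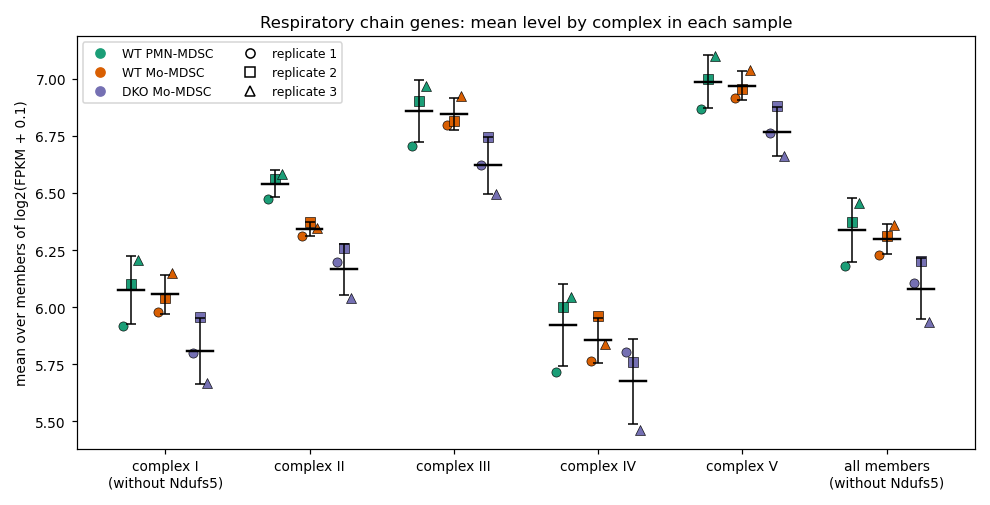
Mean log2(FPKM + 0.1) over the members of each complex and over all members (vertical axis, Ndufs5 left out of complex I and of all members) in each of the 9 samples, with colour for the group, symbol for the replicate, and a line and bar for the mean ± SD of 3 samples. The 3 libraries labelled DKO sit below the WT Mo-MDSCs in complexes I (without Ndufs5), II, III and V, whereas in complex IV all 3 groups overlap.

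Complex I without Ndufs5 averaged 6.08 ± 0.15 (log2 level, SD, n = 3) in PMN-MDSCs, 6.06 ± 0.09 in WT Mo-MDSCs and 5.81 ± 0.14 in the libraries labelled DKO. With Ndufs5 the same means were 5.98 ± 0.27, 5.92 ± 0.04 and 5.63 ± 0.24. Complex II averaged 6.54 ± 0.06, 6.34 ± 0.03 and 6.17 ± 0.11, and here no 2 of the 3 groups overlapped. Complex III averaged 6.86 ± 0.14, 6.85 ± 0.07 and 6.62 ± 0.12. Complex IV averaged 5.92 ± 0.18, 5.86 ± 0.10 and 5.68 ± 0.19, and complex V 6.99 ± 0.12, 6.97 ± 0.06 and 6.77 ± 0.11. In complexes I, III, IV and V, the values of PMN-MDSCs and WT Mo-MDSCs overlapped.

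Replicates of a group did not lie at the same level. Of the 82 members, 64 had their lowest PMN-MDSC value in replicate 1 and 56 their highest in replicate 3, and 58 had their lowest value among the libraries labelled DKO in replicate 3. Replicate 1 of every group carries a library number from an earlier run of numbers than replicates 2 and 3, and within each replicate the numbers of the 3 groups follow one another. The labels do not say what a shared run of numbers means. Hba-a1, a haemoglobin gene from the erythroid list, was highest in replicate 2 of every group, at 2656, 2529 and 2224 FPKM, against 1110 to 1655 in the other 6 samples. Within replicates 2 and 3 alone, 0 members were called higher and 2 lower in Mo-MDSCs against PMN-MDSCs of WT mice, where 11.1% and 14.6% of all genes were called, and 74 of 81 members lay below 0 in the libraries labelled DKO (median log2 fold change -0.25), as described next. Replicate 1 alone gives 1 library per group and no test.

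**Figure D2:**
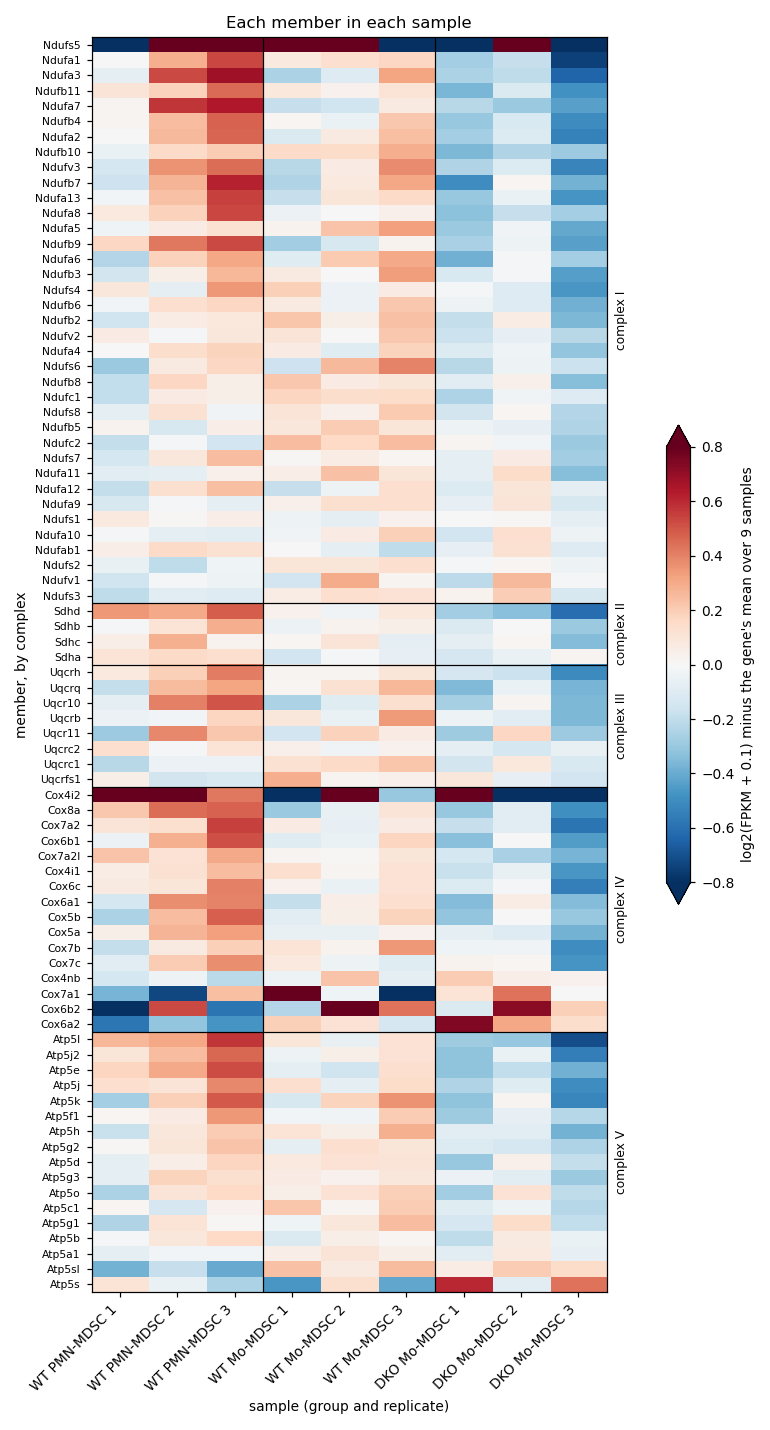
Each member (rows, by complex) in each sample (columns), coloured by log2(FPKM + 0.1) minus the gene's mean over the 9 samples, with the scale ending at 0.8 in either direction. Replicate 3 is the lowest of the libraries labelled DKO in 58 rows and the highest of the PMN-MDSCs in 56, and the rows of Ndufs5, Cox4i2, Cox7a1 and Cox6b2 vary within groups.

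The first comparison asked how Mo-MDSCs differ from PMN-MDSCs within WT mice. Between these populations 10 of the 81 members tested changed (limma, adjusted p under 0.05 over 11491 genes): 5 were higher in Mo-MDSCs, where the share over all genes was 18.5%, and 5 were lower, where it was 20.6%. The share of members called was 6.17% in each direction, below both of these shares, and the difference was not tested. At an unadjusted p under 0.05 there were 7 higher and 9 lower, against 23.3% and 25.0% of all genes, and the 3 against 3 samples did not overlap for 11 higher and 11 lower, against 26.2% and 26.4%. The median log2 fold change was -0.06 over members and 0.01 over all genes tested. With the replicate number as a block, which the data pair here, 11 members (13.6%) were called higher and 20 (24.7%) lower, the 10 above among them, and of all genes 27.6% and 29.7%. Without the block, 6 of 7 red-pulp macrophage, 2 of 5 B-cell and 7 of 10 neutrophil markers were called lower in Mo-MDSCs, and 5 of 7 monocyte markers higher. With it these counts were 6, 4, 10 and 5. The part of other cells was not tested.

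Among the members higher in Mo-MDSCs, 2 were core proteins of their complexes. Uqcrc1, a core protein of complex III, was at 71.7, 80.7 and 80.7 FPKM in the PMN-MDSCs, and the WT Mo-MDSCs had 91.0, 92.9 and 97.6 (log2 fold change 0.27 ± 0.08 SE, adjusted p = 0.0296). Ndufs3, a core subunit of complex I, was at 48.1, 52.0 and 51.6 FPKM and at 57.8, 60.9 and 60.0 (0.24 ± 0.07, adjusted p = 0.0316). For both, every Mo-MDSC value lay above every PMN-MDSC value.

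Ndufc2, an accessory subunit in the membrane arm of complex I, was at 52.5, 59.7 and 54.0 FPKM in PMN-MDSCs and 71.2, 67.2 and 71.2 in WT Mo-MDSCs (0.34 ± 0.08, adjusted p = 0.0126). Cox6a2, the isoform of Cox6a best known from heart and skeletal muscle, was at 13.9, 16.7 and 15.0 FPKM against 23.7, 22.6 and 18.98 (0.51 ± 0.11, adjusted p = 0.0108). Atp5sl, no subunit of the synthase in spite of its symbol, was at 15.1, 17.2 and 14.8 FPKM against 23.0, 20.5 and 23.3 (0.50 ± 0.09, adjusted p = 0.00529). Again no group overlapped.

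Complex II held 2 of the 5 members that were lower in Mo-MDSCs. Sdhd, one of its membrane anchors, was at 103, 100.2 and 114 FPKM in PMN-MDSCs and 82.9, 79.3 and 85.8 in WT Mo-MDSCs (log2 fold change -0.35 ± 0.08, adjusted p = 0.0109). Sdha, the flavoprotein that oxidises succinate, was at 93.2, 95.9 and 94.7 FPKM against 77.5, 85.4 and 82.4 (-0.21 ± 0.07, adjusted p = 0.0478). Sdhb (-0.12 ± 0.09, adjusted p = 0.338) and the second anchor Sdhc (-0.11 ± 0.10, adjusted p = 0.409) overlapped between the groups.

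The other 3 were small accessory subunits. Ndufb9, an accessory subunit of complex I, was at 102, 122 and 132 FPKM in PMN-MDSCs and 75.4, 83.7 and 93.1 in WT Mo-MDSCs (-0.50 ± 0.12, adjusted p = 0.0164). Cox8a, the ubiquitous Cox8 isoform, was at 353, 414 and 422 FPKM against 248, 292 and 326.5 (-0.46 ± 0.13, adjusted p = 0.0252). Atp5l, subunit g of the synthase, was at 337, 348 and 418 FPKM against 299, 269 and 303 (-0.33 ± 0.11, adjusted p = 0.0452). The highest Mo-MDSC library stayed below the lowest PMN-MDSC library for each.

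These calls depended on single libraries and on the scale. Without PMN-MDSC replicate 1, 2 or 3 in turn 13, 7 and 5 members were called, and without Mo-MDSC replicate 1, 2 or 3 the counts were 4, 6 and 6. The share of all genes called was 29.7% to 34.6% in these fits, against 39.1% with all libraries. Cox6a2, Atp5sl and Sdhd stayed called in all 6 of these fits, whereas Ndufs3 (adjusted p 0.0539 to 0.1) and Sdha (0.0704 to 0.152) were called in 0 of 6. When each sample was scaled to an equal summed FPKM, the median of all genes moved to 0.45 and that of members to 0.38, 52 members were called higher and 0 lower (all genes 50.7% and 8.27%), and Sdhd, Sdha and Atp5l turned from lower to slightly higher (0.09, 0.23 and 0.11), each still below the median of all genes. With quantile normalization 33 were called higher and 0 lower (all genes 21.8% and 17.9%), the members' median minus that of all genes was 0.18 in place of -0.07, and Sdha and Atp5l again changed sign. With equal summed FPKM and with equal upper quartiles this difference of medians stayed at -0.07. The sign of the members' median thus changed with the scaling, and no direction is given for the respiratory chain as a whole. In bulk RNA less RNA per cell and fewer cells of a type cannot be told apart.

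**Figure D3:**
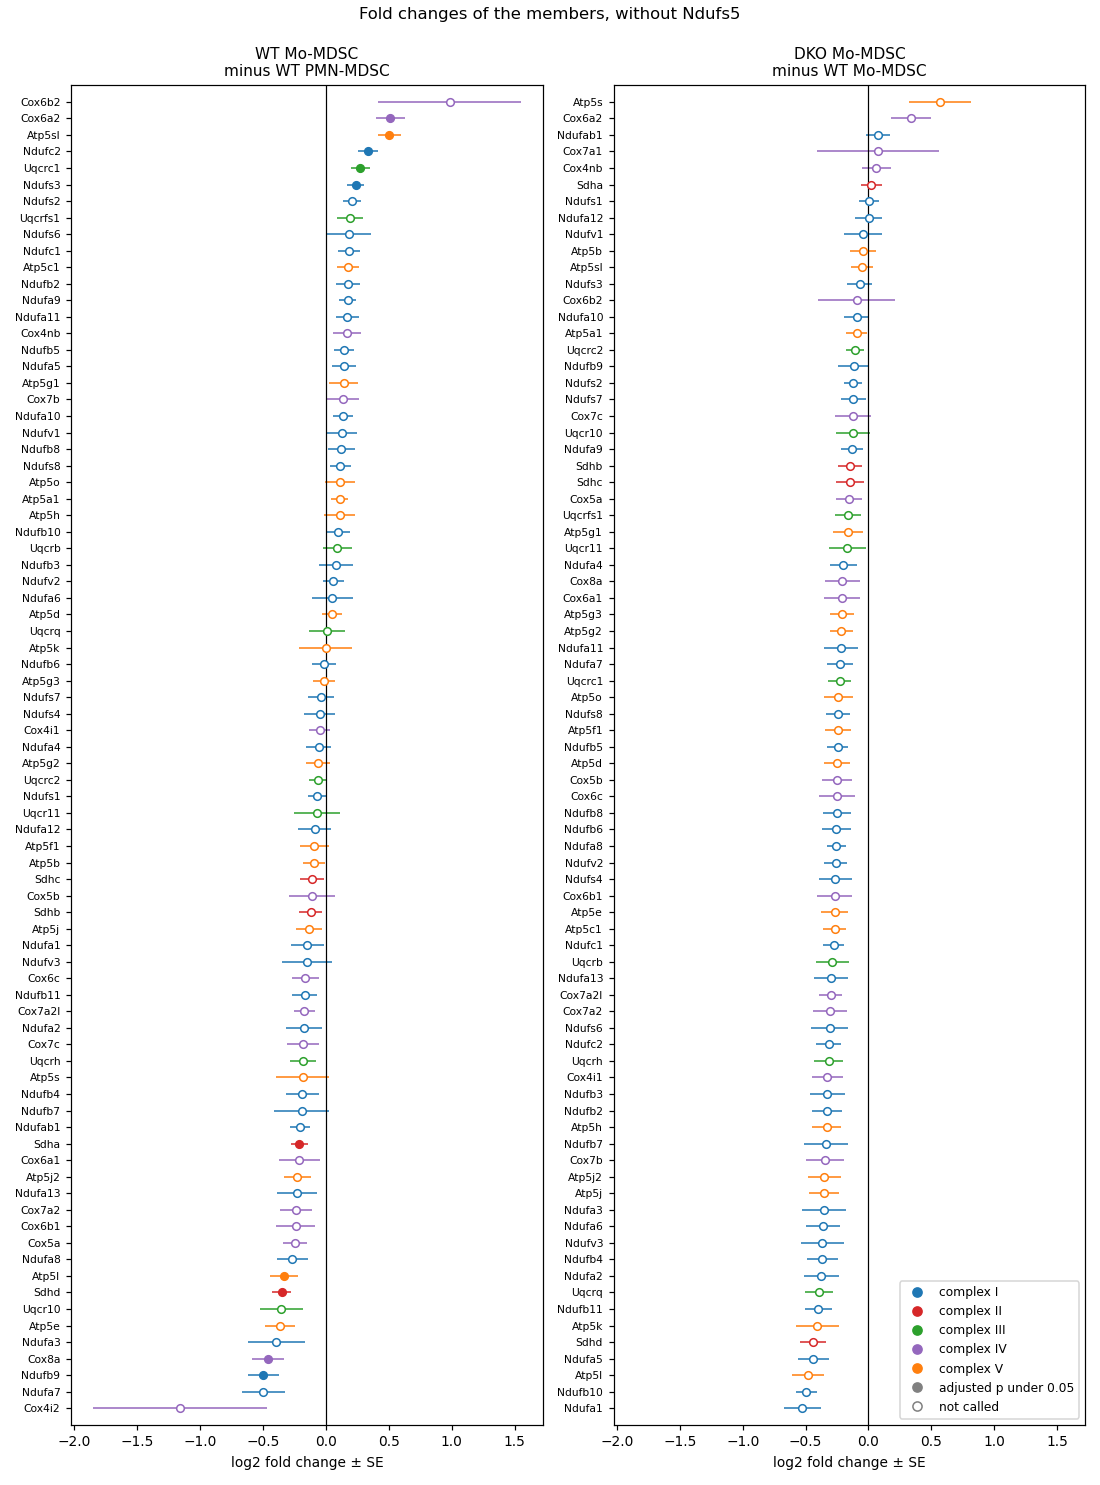
Log2 fold change ± SE (horizontal axis) of each tested member except Ndufs5, ordered by size, for WT Mo-MDSCs against WT PMN-MDSCs (left) and libraries labelled DKO against WT Mo-MDSCs (right), with colour for the complex and filled points for an adjusted p under 0.05. The left panel straddles 0 and has 10 filled points, and the right panel lies mostly below 0 and has none.

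The second comparison asked what differs in Mo-MDSCs when both CDK inhibitors are labelled as lost. No member passed the test: 0 of 81 were called higher or lower by limma, where 0.166% and 0.0873% of all 11451 genes were called in the same directions. The 0 held under every alternative run, with limma the only tool. At an unadjusted p under 0.05, 0 members were higher, against 5.27% of all genes, and 32 were lower, 39.5% of the members against 9.74% of all genes. The 3 libraries labelled DKO lay wholly above the 3 of WT Mo-MDSCs for 0 members, against 7.96%, and wholly below them for 35, 43.2% against 12.9%. The fitted fold change was below 0 for 73 of 81 members (90.1%) and for 53.5% of all genes, and the median was -0.25 over members and -0.02 over all genes. Members share their libraries and were not tested as a set. The WT Mo-MDSC samples serve in both comparisons, so the 2 sets of fold changes are not independent.

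The values below 0 were spread over all complexes. Of the members tested they were 34 of 37 in complex I (median -0.26), 3 of 4 in complex II (-0.15), 8 of 8 in complex III (-0.20), 12 of 15 in complex IV (-0.21) and 16 of 17 in complex V (-0.24). The groups did not overlap for 15, 1, 4, 5 and 10 of these. Over all genes tested 53.5% lay below 0, and 12.9% were lower without overlap. Atp5s (0.57 ± 0.25, adjusted p = 0.335) and Cox6a2 (0.34 ± 0.16, adjusted p = 0.370) had the highest fold changes above 0, with overlapping groups.

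The member closest to the threshold was Ndufb10, an accessory subunit in the membrane arm of complex I. It was at 112, 112 and 124 FPKM in WT Mo-MDSCs and at 78.8, 85.4 and 82.4 in the libraries labelled DKO (log2 fold change -0.49 ± 0.08, adjusted p = 0.0794, and 0.055 to 0.459 over the alternatives). Ndufa1, a small complex I subunit encoded on the X chromosome, was at 95.8, 99.4 and 102 FPKM against 75.1, 79.8 and 54.0 (-0.53 ± 0.14, adjusted p = 0.199). The values below were chosen after they were seen, as the next in order of size.

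Atp5l was at 299, 269 and 303 FPKM in WT Mo-MDSCs and at 230.3, 227 and 172 in the libraries labelled DKO (-0.48 ± 0.13, adjusted p = 0.199). Ndufa5, an accessory subunit of complex I, was at 33.5, 38.6 and 41.3 FPKM against 26.8, 32.2 and 24.8 (-0.44 ± 0.12, adjusted p = 0.202). Sdhd was at 82.9, 79.3 and 85.8 FPKM against 66.7, 64.2 and 53.0 (-0.44 ± 0.10, adjusted p = 0.160). In each of them replicate 3 was the lowest of the libraries labelled DKO, and the groups did not overlap.

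Core and catalytic subunits differed among themselves. Uqcrc1 (-0.23), Ndufv2 (-0.26), Ndufs8 (-0.24) and Atp5c1 (-0.27) lay near the median of all members without overlap, and the following, of which Ndufs1 and Ndufv1 were picked after their values were seen like these 4, lay near 0. Sdha was at 77.5, 85.4 and 82.4 FPKM in WT Mo-MDSCs and 78.7, 83.2 and 87.4 in those labelled DKO (0.02 ± 0.08), and Atp5b at 301, 337 and 328.9 against 283, 343 and 314 (-0.04 ± 0.10). Ndufs1, the largest subunit of complex I, was at 28.7, 28.1 and 30.3 FPKM against 29.6, 29.7 and 28.0, and Ndufv1, which binds NADH, had a log2 fold change of -0.04 ± 0.15. The groups overlapped for Sdha, Atp5b, Ndufs1 and Ndufv1. Cox4i1 and Uqcrh are given as the most abundant of their complexes, not as core or catalytic subunits. Cox4i1 was at 424, 393 and 419 FPKM against 342, 370.2 and 279 (-0.33 ± 0.12, adjusted p = 0.279). Uqcrh was at 281, 281 and 296 against 252, 247 and 195 (-0.32 ± 0.12, adjusted p = 0.277). Both were without overlap and short of the threshold.

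Several measured quantities moved with this comparison. Without replicate 3 of the libraries labelled DKO the median over members was -0.18, and without replicate 2 it was -0.31. With equal summed FPKM it was -0.09, with the median of all genes at 0.14, and with quantile normalization -0.12 with all genes at 0.01. The members' median minus that of all genes thus ran from -0.23 to -0.13 over the 4 scalings. Neutrophil markers were lower in the libraries labelled DKO in 9 of 10 genes by fitted fold change (0 called, groups apart in 5), and red-pulp macrophage and erythroid markers were above 0 in 7 of 7 and 6 of 6 tested (0 called). B-cell markers were above 0 in 5 of 5 (median 0.25, 0 called, groups apart in 2, as in the red-pulp list). Monocyte markers were below 0 in 5 of 7 (0 called, groups apart in 4). Of all genes tested 53.5% lay below 0, and the groups were apart for 12.9% as lower and 7.96% as higher. No marker list was tested against these shares. Mmp8 was the neutrophil marker above 0, at 71.7 to 112 FPKM against 42.3 to 55.2 in WT Mo-MDSCs, without overlap. The part of other cells in the members' values was not tested.

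Transcript length went with the fold changes. The median member transcript was 744 bases long, the shortest 322 (Atp5k) and the longest 2900 (Sdha), against a median of 2630 over 11087 tested genes with a length. In the libraries labelled DKO against WT Mo-MDSCs the median log2 fold change of members was -0.27 under 600 bases (n = 27), -0.26 from 600 to under 1000 (n = 25), -0.16 from 1000 to under 2000 (n = 21) and -0.05 from 2000 (n = 8). Genes outside the members in the same classes had medians of -0.21 (n = 148), -0.16 (n = 730), -0.07 (n = 2737) and 0.01 (n = 7215). In every class the members' median lay below that of the other genes. The class from 2000 bases held 8 members only, 4 on either side of 0. For the comparison of WT populations the members' medians ran from -0.11 and -0.10 through 0.06 to 0.12, and those of other genes from -0.18 and -0.10 through -0.01 to 0.03. Across the 81 members Spearman's rho between length and fold change was 0.40 in the DKO comparison and 0.27 in the other, a description over genes that share their libraries, and it was 0.28 and 0.08 over the other genes. The part of length in the members' fold changes was not tested.

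**Figure D4:**
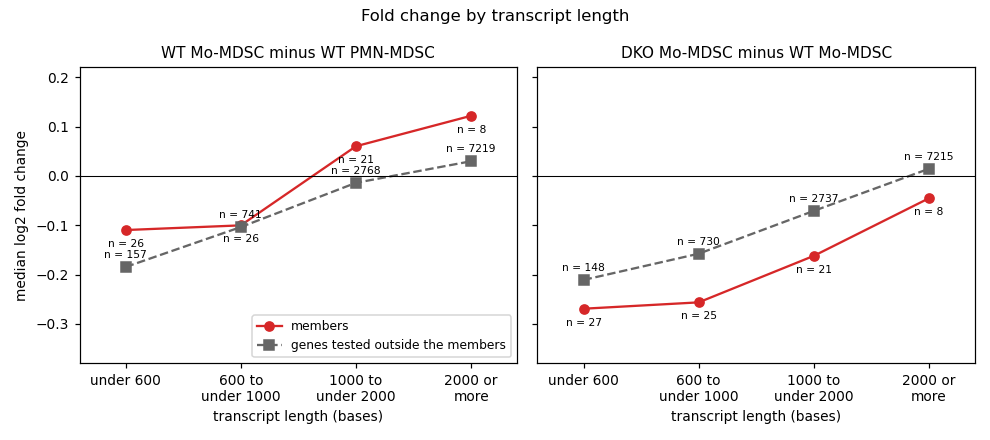
Median log2 fold change (vertical axis) of members and of all other tested genes in 4 classes of transcript length (horizontal axis), with the number of genes beside each point. Both lines rise from short to long transcripts in both comparisons, and the members' line lies below the other in every class only on the right.

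Members on the chromosomes of the targeted genes were set out by position (RefSeq, GRCm38). Chromosome 17 carries Cdkn1a and 6 members: Ndufv3 lies 2.42 Mb from it, Ndufb10 (24722060 to 24724423) 4.37 Mb, Ndufa7 4.72 Mb, Ndufa11 27.6 Mb, Ndufv2 37.0 Mb and Cox7a2l 54.4 Mb. Their log2 fold changes in the libraries labelled DKO were -0.37, -0.49, -0.23, -0.22, -0.26 and -0.30. Chromosome 4 carries Cdkn2a and 4 members: Uqcrh at 26.8 Mb (-0.32), Ndufs5 at 34.4 Mb (-2.01 ± 2.31), Ndufb6 at 49.0 Mb (-0.26) and Sdhb at 51.7 Mb (-0.15). All 10 were below 0, as were 73 of the 81 members tested, and the part of the targeted regions was not tested.

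Subunits with alternative isoforms were used unequally, and FPKM allows levels to be compared between genes per length. Cox4i1 was 264 times as abundant as Cox4i2, its hypoxia-associated isoform, in PMN-MDSCs by the ratio of means, and Cox4i2 stayed at 0.136 to 2.00 FPKM over the 9 samples. Cox6b1 exceeded Cox6b2, known from testis, 50.9-fold in PMN-MDSCs, 25.1-fold in WT Mo-MDSCs and 22.8-fold in the libraries labelled DKO, and Cox6b2 varied from 2.25 to 15.1 FPKM. Cox7a2 exceeded Cox7a1, a heart and muscle isoform, 126-fold, 67.8-fold and 62.4-fold. Single samples overlapped for both pairs. The Cox7a ratio ran from 106 to 169 among PMN-MDSCs and from 37.6 to 178 among WT Mo-MDSCs. For Cox6b it ran from 28.2 to 118 and from 17.5 to 37.2. Ndufa4l2, a hypoxia-induced relative of Ndufa4, stayed at 0 to 0.219 FPKM, against a mean of 193 for Ndufa4.

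Of the minor isoforms tested, Cox6a2 was the one with a called difference without the replicate block. With the block Cox6b2 was called too (0.98 ± 0.57, adjusted p = 0.212 without the block and 0.0106 with it), as were Cox6a1 (0.348 and 0.0340) and Cox6b1 (0.255 and 0.0311). Cox6a1, the ubiquitous one, was at 237.9, 339.8 and 346 FPKM in PMN-MDSCs, at 229.9, 272 and 287 in Mo-MDSCs of WT mice, and at 206, 273 and 207 in the libraries labelled DKO. Its ratio to Cox6a2 ranged over 17.1 to 23.1 among PMN-MDSCs, 9.69 to 15.1 among WT Mo-MDSCs and 5.94 to 10.6 among the libraries labelled DKO. The PMN-MDSC range lay apart from that of the WT Mo-MDSCs, and the latter overlapped that of the libraries labelled DKO. The 3 genes for subunit c of the synthase, Atp5g1, Atp5g2 and Atp5g3, had 69.6, 200.5 and 197 FPKM over the 9 samples and Atp5g2 to Atp5g1 ratios of 3.19, 2.78 and 2.67 in the 3 groups. Cox7a2l, which takes part in assembling supercomplexes, was at 209 FPKM over the 9 samples, with -0.17 ± 0.08 in WT Mo-MDSCs against PMN-MDSCs (adjusted p = 0.133, and 0.0237 with the replicate block) and -0.30 ± 0.09 in those labelled DKO against WT (adjusted p = 0.217).

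**Figure D5:**
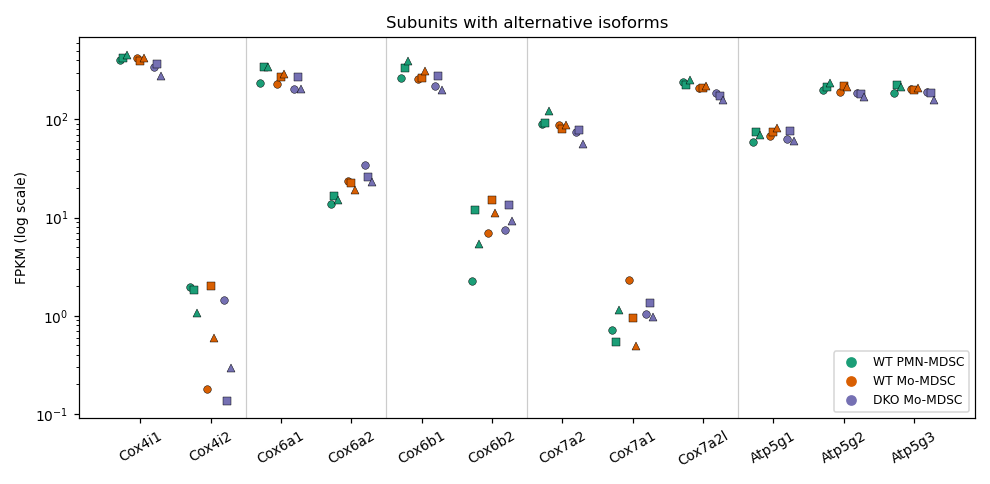
FPKM (log scale) of members with alternative isoforms in each of the 9 samples, with colour for the group and symbol for the replicate (circle 1, square 2, triangle 3). Cox4i1, Cox6a1, Cox6b1 and Cox7a2 lie above their minor isoforms in all samples, and Cox6a2 is lowest in PMN-MDSCs.

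Related mitochondrial genes were taken from lists fixed with earlier results known. Over all genes tested, 18.5% were called higher and 20.6% lower in WT Mo-MDSCs against PMN-MDSCs. These shares stand beside the counts of every list below, and no list was tested against them. In WT Mo-MDSCs against PMN-MDSCs, 2 of 27 tested assembly factors were called higher and 3 lower: Nubpl, which delivers iron-sulphur clusters to complex I, fell from 8.79 ± 1.86 to 3.99 ± 0.39 FPKM (-1.10 ± 0.16, adjusted p = 0.00204), Cox17, the copper chaperone of complex IV, from 163 ± 36.2 to 83.0 ± 8.80 (-0.95 ± 0.17, adjusted p = 0.00492), and Sdhaf2, which helps attach flavin to Sdha, from 18.4 ± 1.96 to 13.2 ± 1.63 (-0.48 ± 0.12, adjusted p = 0.0183). Atpaf2, an assembly factor of the synthase, rose from 8.58 ± 0.39 to 11.0 ± 0.50 (0.35 ± 0.08, adjusted p = 0.0128). Of 76 mitochondrial ribosomal protein genes 9 were higher and 4 lower, among them Mrpl33, at 295 ± 45.6 against 152 ± 18.5 FPKM (-0.95 ± 0.14), and Mrpl37, at 17.5 ± 1.76 against 25.4 ± 2.11 (0.54 ± 0.10). Of 15 genes for mitochondrial DNA upkeep, transcription and translation 4 were higher and 0 lower, with Mtif2, an initiation factor, at 7.46 ± 0.51 against 12.2 ± 0.21 FPKM (0.71 ± 0.08), and Polrmt, the mitochondrial RNA polymerase, at 5.76 ± 0.79 against 8.13 ± 0.55 (0.50 ± 0.13).

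Of 18 genes of the TCA cycle and pyruvate dehydrogenase 5 were higher and 1 lower, with Mdh2, malate dehydrogenase, at 224 ± 20.8 against 149 ± 4.11 FPKM (-0.58 ± 0.09) and Idh3b, a subunit of isocitrate dehydrogenase, at 45.6 ± 5.30 against 67.4 ± 3.93 (0.57 ± 0.10). Of 12 carriers, porins and antioxidant enzymes 1 was higher, Sod2 (0.31 ± 0.07), and 1 lower, Slc25a11, the 2-oxoglutarate carrier, at 66.6 ± 4.64 against 52.5 ± 5.23 FPKM. Of 10 electron carriers and subunits outside the symbol rule only Gpd2, the glycerol-3-phosphate dehydrogenase that feeds electrons to ubiquinone, was called without the replicate block, at 20.0 ± 2.65 against 10.6 ± 0.49 FPKM (-0.90 ± 0.11, adjusted p = 0.000895). With the replicate block the calls rose to 6 higher and 4 lower assembly factors, 18 and 9 mitochondrial ribosomal genes, 6 and 0 of the mitochondrial DNA list, 8 and 2 of the TCA cycle list, 3 and 3 carriers and 2 and 4 electron carriers, while those of all genes rose as given above. In the libraries labelled DKO against WT Mo-MDSCs 0 genes of any of these lists were called, with or without the block. Fitted values lay below 0 there for 62 of 76 mitochondrial ribosomal genes (median -0.13), 16 of 18 TCA cycle genes (-0.10), 17 of 27 assembly factors (-0.07) and 5 of 15 genes of the mitochondrial DNA list (0.01). Of all genes tested 53.5% lay below 0 in the same comparison.

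The 11 regulators of mitochondrial gene expression did not move as a block. Gabpb1, the partner subunit of the ETS factor Gabpa, was at 21.3, 20.6 and 22.1 FPKM in PMN-MDSCs and 13.2, 11.9 and 12.9 in WT Mo-MDSCs (-0.75 ± 0.08, adjusted p = 0.000405), and Yy1 fell from 50.5 ± 6.98 to 36.6 ± 5.49 (-0.47 ± 0.14, adjusted p = 0.0380, groups overlapping). Hcfc1, a co-regulator, rose from 25.0 ± 2.22 to 37.2 ± 3.06 (0.57 ± 0.10, adjusted p = 0.00404), and Pprc1, a PGC-1 related coactivator, from 8.80 ± 0.72 to 11.0 ± 0.97 (0.31 ± 0.10, adjusted p = 0.0467). Nrf1 (-0.22, adjusted p = 0.109, and 0.0394 with the replicate block), Gabpa (0.08), Esrra (0.04), Myc (-0.16) and Ppargc1b (0.44) were not called without the block, and Ppargc1a, at 0.149 to 0.170 FPKM by group mean, and Ppara, at 0.0130 or less, were too low to test. In the libraries labelled DKO none was called: Pprc1 was at 12.6, 14.9 and 15.5 FPKM against 10.2, 12.0 and 10.7 in WT Mo-MDSCs (0.39 ± 0.11, adjusted p = 0.213), Ppargc1b had 0.37 ± 0.18, and the other 7 lay between -0.09 and 0.11.

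Promoter sequence was described for the motifs of 4 factors that are known to bind promoters of respiratory genes. RefSeq windows on GRCm38.p6, from 250 bases before to 50 after each start, were given for 68 of the 82 members. The letters searched on both strands were GCATGCGC for NRF1, CCGGAAG for ETS factors, AAGATGGC for YY1 and AAGGTCA for the oestrogen-related receptors (ERR). The NRF1 letters can overlap themselves on the opposite strand, and CCGGAAG ends in the letters with which the YY1 and ERR motifs begin, so those matches can share bases. NRF1 letters were in 10 of 68 members (14.7%), 6.06% of 8322 other tested genes and 3.05% of all genes with a window. ETS letters were in 16 members (23.5%, against 20.6% and 9.93%), YY1 letters in 11 (16.2%, against 5.42% and 3.19%) and ERR letters in 8 (11.8%, against 3.93% and 5.38%). The median window was 58.0% G and C in members and 60.3% in the other tested genes. In 33 of 68 members none of the 4 was found, Ndufb10, Ndufa1 and Ndufa5 among them. No YY1 or ERR letters were found in complex III (5 members with a window) or complex IV (11). Complex II (3) held no YY1 letters. These are few windows, and the absence was not tested.

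The following stretches, all before the annotated gene, are shown for 3 members called between PMN-MDSCs and Mo-MDSCs and for Ndufb4, one of the members lower without overlap in the libraries labelled DKO, with the motif in capitals.
Sdhd, ETS, chr9:50603873-50603911, minus strand: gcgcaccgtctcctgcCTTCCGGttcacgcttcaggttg
Ndufs3, ETS, chr2:90904726-90904764, minus strand: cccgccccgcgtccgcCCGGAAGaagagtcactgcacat
Atp5l, NRF1, chr9:44920959-44920992, minus strand: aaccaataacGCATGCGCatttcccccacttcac
Ndufb4, ERR, chr16:37654401-37654439, minus strand: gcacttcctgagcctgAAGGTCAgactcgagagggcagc
Ndufb4 was at 88.9, 84.9 and 103 FPKM in WT Mo-MDSCs and at 71.5, 81.0 and 62.3 in the libraries labelled DKO (-0.37 ± 0.12, adjusted p = 0.243). The ETS letters of Sdhd and Ndufs3 begin 46 and 27 bases before the start, the ERR letters of Ndufb4 55 bases before it and the NRF1 letters of Atp5l 240 bases before it. Of the 8 called members with a window, ETS letters were also in Cox8a and Atp5l, NRF1 letters in Uqcrc1, YY1 letters in Atp5sl and ERR letters in Sdhd and Atp5l, and none of the 4 motifs was found in Ndufc2 and Sdha. A match is a match of letters only, and no match says only that these letters are not in the window.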

How the data were processed

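RNA-seq of 9 splenic MDSC libraries (stranded mRNA kit, single-end) was analysed from the deposited FPKM values, 1 table per sample. Per the labels, the authors mapped reads to mm10 with TopHat2 2.0.13, Bowtie2 2.2.3 and SAMtools 0.1.19 and computed FPKM with Cuffnorm 2.2.1; its scaling, the annotation, strand setting and treatment of reads shared with gene copies are not given in the sources used here. No read totals are given; steps among low values gave depths of 0.809 to 1.31 relative to 1 library, on 363 to 437 of 1955 to 2178 low genes.

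Samples were grouped by title. Genes with at least 1 FPKM in 3 of the 6 samples compared were tested on log2(FPKM + 0.1), a scale that understates changes of low genes, with limma 3.58.1 (R 4.3.3, trended empirical Bayes, Benjamini-Hochberg over all genes tested; call at adjusted p under 0.05), after testing on simulated data. Cox7a1 was left out of the PMN-MDSC comparison and Cox4i2 of the DKO comparison by this filter, so 81 members were tested in each. With 3 against 3 samples an exact permutation test cannot go below 0.1 and was not used.

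Same-numbered PMN-MDSC and WT Mo-MDSC libraries deviated together (correlations 0.29, 0.48 and 0.20), so the replicate number pairs them; library numbers run consecutively across the 3 groups within a replicate number, but no label states a pairing. Transcript lengths were medians over protein-coding GENCODE M21 transcripts; all 82 members matched RefSeq (4 by an older symbol). Members and lists were chosen with earlier results of these data known. Members were named as most abundant per complex, called with groups apart, complex II, isoform families, those on chromosomes 17 and 4, and up to 4 called genes per related list, with all regulators. Alternatives were pseudocounts, filters, scalings, 1 fit of 9 samples, the replicate block, replicates 2 and 3 only, and each library left out.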

Additional observations from a re-analysis of the deposited data

How the results depend on the processing

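Between WT Mo-MDSCs and PMN-MDSCs the count of members called, 5 higher and 5 lower, became 52 and 0 with equal summed FPKM, 33 and 0 with quantile normalization, 11 and 20 with the replicate block, and 0 and 2 with replicates 2 and 3 only, where all genes called were 50.7% and 8.27%, 21.8% and 17.9%, 27.6% and 29.7%, and 11.1% and 14.6%; leaving out 1 library gave 2 to 5 higher and 1 to 10 lower. The mean log2 differences of complexes I to V and of all members, in this order, became 0.39, 0.24, 0.43, 0.37, 0.42 and 0.39 with equal summed FPKM and 0.18, 0.10, 0.30, 0.19, 0.30 and 0.22 with quantile normalization, and that of complex II -0.14 with equal upper quartiles. In the libraries labelled DKO against WT Mo-MDSCs the differences with equal summed FPKM were -0.0204 for complex II, -0.0674 for III, -0.0271 for IV, -0.0433 for V and -0.0892 for all members, and with quantile normalization -0.0946 for II, -0.11 for III and -0.0756 for V. Differences that moved by less than the pooled SD of the 2 groups are not listed, complex I among them. Its pooled SD was 0.17 with Ndufs5 and 0.12 without it, so its absence here does not mean that it stayed in place. The scalings themselves move all genes, by the medians given above; the cause was not tested further.

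Between WT Mo-MDSCs and PMN-MDSCs 48 members lay below 0 without rescaling, 5 with equal summed FPKM and 10 with quantile normalization. Only members called with or without the rescaling are listed here. Their fold changes that changed direction with equal summed FPKM were Ndufa12 0.35, Ndufa4 0.38, Ndufb11 0.27, Ndufb6 0.43, Ndufs1 0.37, Ndufs4 0.39, Ndufs7 0.40, Sdha 0.23, Sdhb 0.32, Sdhd 0.0906, Uqcrc2 0.38, Uqcrh 0.26, Cox4i1 0.39, Cox6c 0.28, Cox7a2l 0.27, Atp5b 0.35, Atp5f1 0.35, Atp5g2 0.38, Atp5g3 0.43, Atp5j 0.31, Atp5k 0.44 and Atp5l 0.11. With quantile normalization they were Ndufa4 0.37, Sdha 0.10, Uqcrh 0.24, Cox4i1 0.39, Cox6c 0.26, Cox7a2l 0.28, Atp5b 0.30, Atp5g2 0.38, Atp5g3 0.41 and Atp5l 0.0465. For the libraries labelled DKO the replicate numbers did not pair (0.35, 0.23 and -0.07), and with the replicate block 0 members were called, as without it. Pseudocounts of 1 and 0.01 called the same 10 members between the populations. In alternatives chosen after the data were seen, without Ndufs5 the complex I difference of the libraries labelled DKO went from -0.30 to -0.25 and the groups from overlapping to apart, and without Cox4nb, Atp5s and Atp5sl that of complex V went from -0.20 to -0.26.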
